A study of Bos taurus with 2 samples.

Results

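The BCL2 family of apoptosis regulators was examined in the bovine embryos of this knockdown experiment, sequenced as 1 pool injected with CDKN1C siRNA (the siRNA pool) and 1 sham-injected pool (the sham controls). The family is represented by 10 genes chosen by name, namely BID, BAD, BCL2L11, BBC3, BAX, BAK1, BOK, BCL2, BCL2L1 and MCL1, and every row of the authors' tables with one of these symbols was taken. The rows came to 11 of 22220 loci, because BID is listed at 2 loci, and to 10 of 21209 gene symbols. All embryos came from in vitro fertilization. The injected zygotes received siRNA against CDKN1C, a cell-cycle inhibitor, whereas the sham zygotes were punctured by the needle and received no siRNA. The presence of siRNA and a knockdown of CDKN1C therefore cannot be told apart in these pools. The study's methods describe collecting blastocysts from each treatment group for RNA extraction. The number and sex of the embryos in each sequenced pool are not given in the sources used here.

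Proteins of the BCL2 family decide whether the outer mitochondrial membrane is opened during apoptosis. The effectors BAX and BAK1 form pores in that membrane and release cytochrome c, and BOK is a related effector. The anti-apoptotic proteins BCL2, BCL2L1 (BCL-xL) and MCL1 bind BAX, BAK1 and their activators. The BH3-only proteins BID, BAD, BCL2L11 (BIM) and BBC3 (PUMA) relay death signals to the anti-apoptotic proteins and to BAX and BAK1. In mouse, embryos that lack Mcl1 die around implantation. These roles are known mainly from human and mouse cells.

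Values are FPKM, counts of sequenced fragments scaled to transcript length and normalized between libraries by the upper quartile of their values. Levels are compared between genes below on this scale. The RNA was amplified before sequencing, and the part of amplification in the order of levels between genes was not tested. Each pool was a single library, so no difference below has a replicate check, an error or a p-value. FPKM carry no read count, and the depth behind each value is unknown. A log2 difference is log2 of injected over sham with 1 FPKM added on both sides, which shrinks differences between low values. A difference was counted when it reached 2-fold on this scale. Fold values of single genes are plain ratios of FPKM. In whole embryos, fewer cells of a type and less RNA per cell cannot be told apart. CDKN1C itself was 14.6 FPKM in the siRNA pool, against 49.5 FPKM in the sham controls, 3.40-fold lower. GAPDH and RPLP0, used as references below, were 3.24-fold and 3.12-fold lower, so relative to either of them CDKN1C hardly differed in these 2 libraries. The study itself reported a knockdown of CDKN1C in injected blastocysts by qRT-PCR, with GAPDH as the reference. ACTB, the third reference, was 1.32-fold higher in the siRNA pool. The total over all loci was 1051057 FPKM in the siRNA pool, against 1384061 FPKM in the sham controls.

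As deposited, the expressed pro-apoptotic members were lower in the siRNA pool and MCL1 was higher, although BID, BAD and BBC3 were higher when the pools were scaled to GAPDH or RPLP0, BBC3 also at the same total FPKM, and MCL1 was lower when they were scaled to ACTB. Of the 10 members, 7 had a mean of 1 FPKM or more over both pools and were counted as expressed, as were 7984 genes in all. Of these 7, 4 were 2-fold or more lower in the siRNA pool (BOK, BAX, BCL2L11 and BAD), 3 lay within 2-fold (BID, BBC3 and MCL1) and 0 were 2-fold or more higher. Over the 7984 expressed genes, 15.7% were 2-fold or more lower and 4.92% 2-fold or more higher. Lower by any amount as deposited were 58.3% of them. The median log2 difference of the 7 members was -1.25, and that of all 7984 genes was -0.17. The remaining 3 members, BAK1, BCL2 and BCL2L1, were below a mean of 1 FPKM and are given by their values alone.

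**Figure D1:**
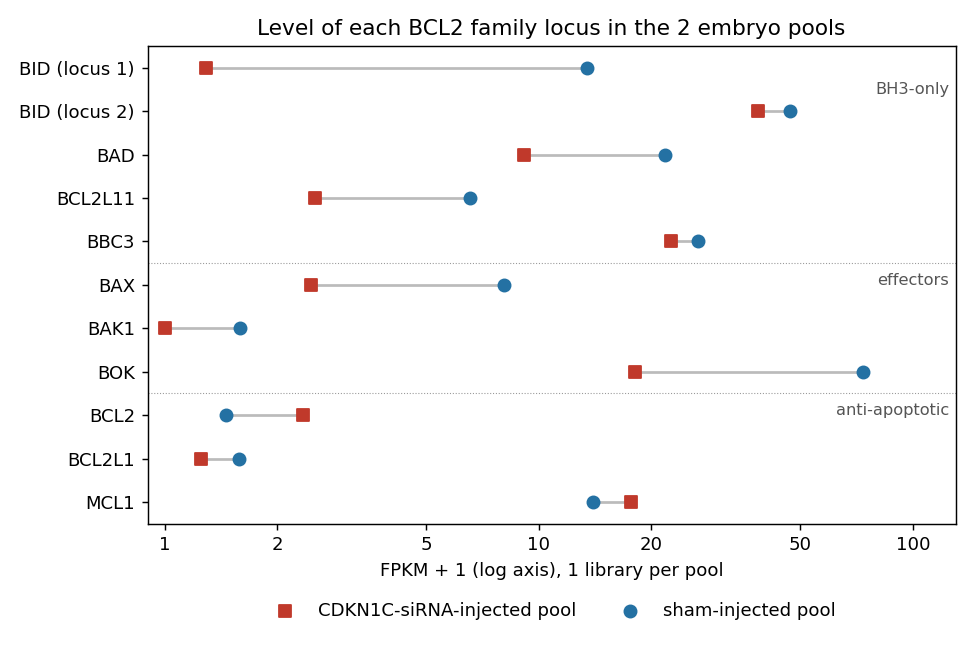
FPKM + 1 (horizontal, log axis) of each BCL2 family locus in the CDKN1C-siRNA-injected pool (red squares) and the sham-injected pool (blue circles), 1 library each, grouped by role. With the values as deposited, red lies left of blue for each BH3-only and effector locus and for BCL2L1, and right of blue for BCL2 and MCL1, whereas scaling to GAPDH or RPLP0 puts BID, BAD and BBC3 (and, below a mean of 1 FPKM, BCL2L1) higher in the siRNA pool, the same total FPKM does so for BBC3, and scaling to ACTB puts MCL1 lower.

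Among the effectors, BOK had the largest log2 difference after adding 1 FPKM, whereas BAX had the larger plain ratio and the larger difference after adding 0.1 FPKM or with GAPDH or RPLP0 as the reference. BOK lies on chromosome 3 of bosTau7, the genome build of the authors' values, from 125530376 to 125543142. It was 17.1 FPKM in the siRNA pool, against 72.6 FPKM in the sham controls, which is 4.24-fold lower. Its log2 difference of -2.02 was the only one among the 7 members past 4-fold, a size reached by 1.05% of all genes in that direction. In all, 77 of the 7984 genes were at or below it. In the siRNA pool BOK came after BID and BBC3 in level, above 72.7% of the 7984 genes, and in the sham controls it had the highest level of the 10 members, above 87.1% of genes.

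BAX, which moves from the cytosol to mitochondria when activated, lies on chromosome 18 from 55308683 to 55312694. It was 1.45 FPKM in the siRNA pool, against 7.07 FPKM in the sham controls, 4.86-fold lower, with a log2 difference of -1.72, which 201 of the 7984 genes reached or passed. The BAX level was above 12.5% of genes in the siRNA pool and above 50.7% in the sham controls. BAK1, which resides on the mitochondrial membrane and can act in place of BAX, was listed at 0 in the siRNA pool and at 0.594 FPKM in the sham controls (chromosome 23, 8053588 to 8056583). No fold is given for BAK1.

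As deposited, the 4 BH3-only members were each lower in the siRNA pool, by unequal amounts, but BID, BAD and BBC3 were higher with GAPDH or RPLP0 as the reference and BBC3 also at the same total FPKM. BCL2L11, a strong activator that binds every anti-apoptotic member, was 1.52 FPKM in the siRNA pool, against 5.54 FPKM in the sham controls, a 3.64-fold decrease (chromosome 11, 1267919 to 1310776). BAD, which frees effectors by occupying BCL2 and BCL2L1 and is held inactive by 14-3-3 proteins when phosphorylated, was 8.12 FPKM in the siRNA pool, against 20.7 FPKM in the sham controls, a 2.55-fold decrease (chromosome 29, 44163662 to 44175504). Their log2 differences were -1.38 and -1.25. BBC3, an activator induced by p53, was 21.5 FPKM in the siRNA pool, against 25.7 FPKM in the sham controls, with a log2 difference of -0.25 (chromosome 18, 53953722 to 53956549). The BBC3 level stood above 76.3% of genes in the siRNA pool and above 76.1% in the sham controls. BAX and BBC3, both targets of p53 and both on chromosome 18, were thus 4.86-fold and 1.19-fold lower in the siRNA pool.

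BID, which caspase-8 cleaves into an active form and which links death receptors to mitochondria, differed by unequal amounts at its 2 loci on chromosome 5. The locus from 115412156 to 115418905, called locus 1 here, was 0.287 FPKM in the siRNA pool, against 12.4 FPKM in the sham controls, 43.3-fold lower. Its log2 difference was -3.38. The locus from 115570010 to 115587521, locus 2, was 37.5 FPKM in the siRNA pool, against 45.9 FPKM in the sham controls, 1.22-fold lower, with a log2 difference of -0.28. Summed over both loci, BID was 37.8 FPKM in the siRNA pool, against 58.3 FPKM in the sham controls, 1.54-fold lower, with a log2 difference of -0.61, which 2342 of the 7984 genes reached or passed. Locus 1 held 0.760% of the BID signal in the siRNA pool and 21.3% in the sham controls. The large difference of BID therefore belonged to the locus with the smaller share of its signal.

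The surroundings of the 2 loci differ. They lie 151 kb apart, with CECR2, ATP6V1E1 and BCL2L13 listed between them. Locus 2 begins 3.33 kb after the end of BCL2L13, itself a BCL2 relative, and is followed by MICAL3. The RefSeq gene table of the ARS-UCD2.0 assembly holds 1 BID gene, which has the same neighbours as locus 2, BCL2L13 on one side and MICAL3 on the other. Locus 1 has the same start and end as LOC100852343, which was listed at 0 in the siRNA pool and at 0.597 FPKM in the sham controls, and how reads were divided between symbols at that place is not given in the sources used here. The other 10 loci listed around the BID loci had log2 differences between -0.86 and 0.092. Among them CECR1, CECR2, LOC100849380, LOC100852343 and MICAL3 were below 1 FPKM in both pools, where adding 1 FPKM leaves little room for a difference. LOC100849442, directly before locus 1, was 128 FPKM in the siRNA pool, against 120 FPKM in the sham controls, and CECR2, after locus 1, was listed at 0 in both. ATP6V1E1, a subunit of the vacuolar proton pump, was 182 FPKM in the siRNA pool, against 290 FPKM in the sham controls, and BCL2L13 was 9.18 FPKM in the siRNA pool, against 14.9 FPKM in the sham controls.

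**Figure D2:**
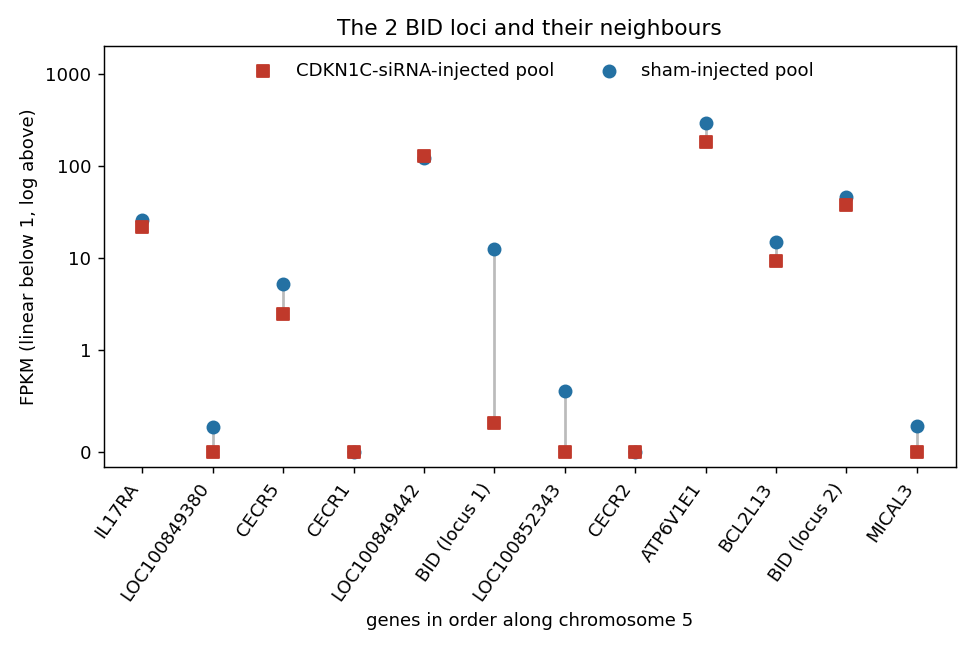
FPKM (vertical, linear below 1 and log above) of the 2 BID loci and their listed neighbours, in order along chromosome 5, in the CDKN1C-siRNA-injected pool (red squares) and the sham-injected pool (blue circles), 1 library each. BID locus 1 stands apart at 0.287 FPKM in the siRNA pool, against 12.4 FPKM in the sham controls, whereas the pools lie close together at BID locus 2.

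Among the rows with an anti-apoptotic member's symbol, MCL1 had the highest level in both pools. MCL1, a short-lived protein that restrains BAK1 and BCL2L11, was 16.6 FPKM in the siRNA pool, against 12.9 FPKM in the sham controls, 1.29-fold higher, with a log2 difference of 0.34 (chromosome 3, 21462113 to 21466750). As high or higher were 1969 of 7984 genes. BCL2, the founding member of the family, was 1.34 FPKM in the siRNA pool, against 0.459 FPKM in the sham controls (chromosome 24, 63544387 to 63749849). Its ratio was 2.92-fold and its log2 difference after adding 1 FPKM was 0.68, at a mean of 0.899 FPKM. BCL2L1 was 0.252 FPKM in the siRNA pool, against 0.583 FPKM in the sham controls (chromosome 13, 61885849 to 61938325). The BCL2L1 location is shared with LOC100851140, which was 8.38 FPKM in the siRNA pool, against 17.4 FPKM in the sham controls, so the division of reads between these symbols is uncertain. Together both symbols came to 8.63 FPKM in the siRNA pool, against 18.0 FPKM in the sham controls, which is below MCL1 in the siRNA pool and above it in the sham controls.

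The order of levels within the family differed between the pools. In the siRNA pool it ran BID, BBC3, BOK, MCL1, BAD, BCL2L11, BAX, BCL2 and BCL2L1, with BAK1 listed at 0. In the sham controls it ran BOK, BID, BBC3, BAD, MCL1, BAX, BCL2L11, BAK1, BCL2L1 and BCL2. Without replicates, no 2 neighbours in either order can be said to differ beyond their spread. The 10 members summed to 106 FPKM in the siRNA pool, against 204 FPKM in the sham controls. Effectors made up 17.5% of that sum in the siRNA pool and 39.2% in the sham controls, while anti-apoptotic members made up 17.2% in the siRNA pool and 6.83% in the sham controls. BH3-only members were the largest group in both, at 65.2% in the siRNA pool and 53.9% in the sham controls. BOK accounted for most of the difference in the effector share, at 16.2% of the sum in the siRNA pool and 35.5% in the sham controls. MCL1 was 15.7% of the sum in the siRNA pool and 6.33% in the sham controls. With LOC100851140 counted as BCL2L1, the anti-apoptotic share was 23.3% in the siRNA pool and 14.1% in the sham controls.

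**Figure D3:**
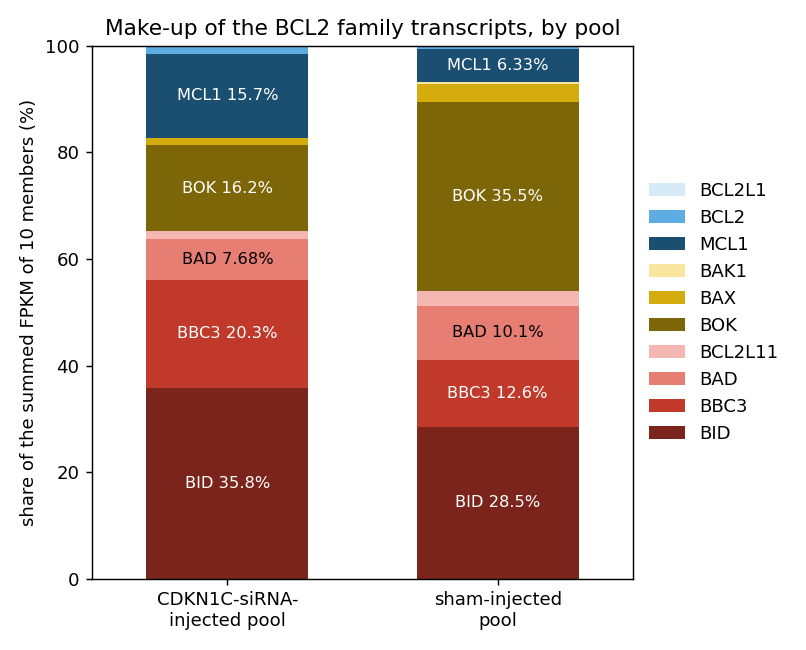
Share of the summed FPKM of the 10 members (vertical, percent) taken by each member in the CDKN1C-siRNA-injected pool (left bar) and the sham-injected pool (right bar), 1 library each, with BH3-only members in reds, effectors in yellows and anti-apoptotic members in blues. BOK takes 16.2% of the left bar and 35.5% of the right bar, and MCL1 takes 15.7% and 6.33%.

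Ratios between members of the same pool do not depend on how the pools are scaled to each other. The summed pro-apoptotic members were 4.80 times the summed anti-apoptotic members in the siRNA pool and 13.6 times in the sham controls. With LOC100851140 counted as BCL2L1, these ratios were 3.29 in the siRNA pool and 6.07 in the sham controls. MCL1 was 11.4 times BAX in the siRNA pool and 1.83 times BAX in the sham controls. Against BCL2L11, MCL1 was 11.0-fold in the siRNA pool and 2.34-fold in the sham controls. Against BOK it was 0.973-fold in the siRNA pool and 0.178-fold in the sham controls. BAX over BCL2, the ratio most used for this family, was 1.09 in the siRNA pool and 15.4 in the sham controls. This last ratio rests on a BCL2 level below 0.5 FPKM in the sham controls.

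The plot of all genes places the members within the spread of the whole comparison. BOK and BAX lay at its lower edge, where 0.964% and 2.52% of the 7984 genes were at or below them. BCL2L11 and BAD followed at 6.63% and 9.18%, whereas BID, at 29.3%, and BBC3, at 46.2%, lay among the bulk of genes. The share of genes 2-fold or more lower differed with level. It was 12.1% of genes with a mean of 1 to 10 FPKM, the range of BAX and BCL2L11, and 21.1% of those with a mean of 10 to 100 FPKM, the range of the other 5 members.

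**Figure D4:**
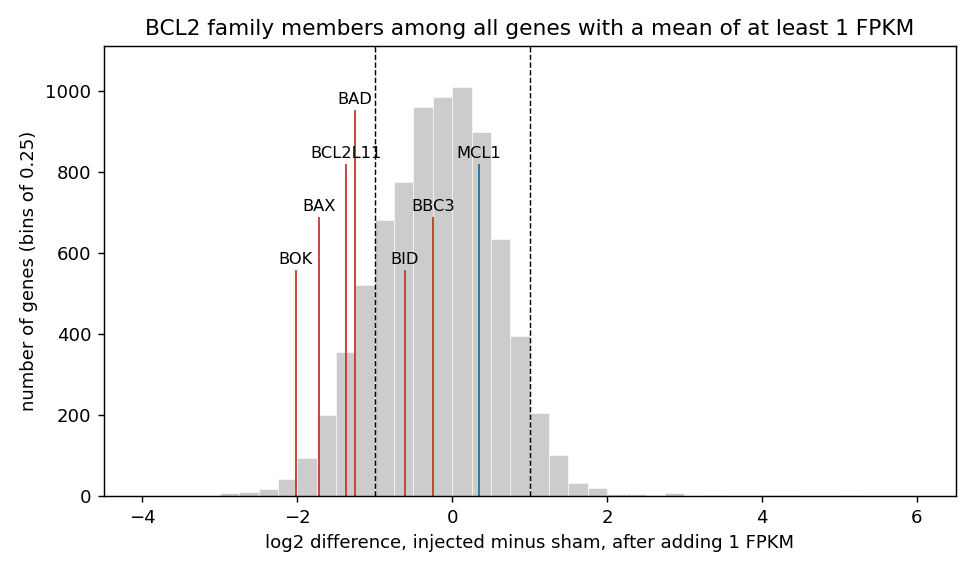
Number of genes (vertical) by log2 difference, injected minus sham, after adding 1 FPKM (horizontal, bins of 0.25) for the 7984 expressed genes. Lines of arbitrary height mark 7 BCL2 family members, dashed lines mark 2-fold, and BOK, BAX, BCL2L11 and BAD lie left of the lower one as deposited, whereas no member does with GAPDH or RPLP0 as the reference and BAD is then higher.

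Gene density moved with the difference between the pools. Each gene was placed by the number of other listed loci within 1 Mb. In the densest tercile of genes, with more than 45 such loci, 28.6% were 2-fold or more lower in the siRNA pool, and in the sparsest tercile, with 19 or fewer, 4.67%. BAX, with 111 loci, and BAD, MCL1 and BBC3, with 77, 72 and 74, fall in the densest tercile, where the median log2 difference was -0.60. BOK, BID and BCL2L11, with 41, 43 and 21, fall in the middle tercile, where 14.0% of genes were 2-fold or more lower and the median was -0.17. Of the 4 members that were 2-fold or more lower, BAX and BAD thus lie in the densest tercile. BOK and BCL2L11 lie in the middle tercile, BOK near its dense end and BCL2L11 near its sparse end. The part of gene density in the members' differences was not tested.

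The scaling between the pools also bears on the direction. GAPDH, RPLP0 and ACTB, the genes the study tested as internal controls for qRT-PCR, differed in direction. The study chose GAPDH among them by its stability value. GAPDH, of glycolysis, was 242 FPKM in the siRNA pool, against 783 FPKM in the sham controls, and RPLP0, a ribosomal protein gene, was 445 FPKM in the siRNA pool, against 1390 FPKM in the sham controls. ACTB, of the actin cytoskeleton, was 2484 FPKM in the siRNA pool, against 1879 FPKM in the sham controls. The median of all 7984 genes was -0.17 as deposited, 0.16 with both pools at the same total FPKM, -0.50 with ACTB as the reference, 1.20 with GAPDH and 1.16 with RPLP0. The median of the 7 members was -1.25 as deposited and -0.88, -1.62, 0.32 and 0.27 in those 4 scalings, so that it was higher in the siRNA pool with GAPDH or RPLP0 and lower in the others. Relative to the median of all genes it was -1.09 as deposited and -1.04, -1.12, -0.88 and -0.89 in the same scalings. This gap was narrower after adding 5 FPKM (-0.59), without a filter (-0.61) and at a mean of at least 5 FPKM (-0.31). BOK, BAX and BCL2L11 were lower in the siRNA pool as deposited and in each of the 4 scalings. BAD was lower except with GAPDH, where its log2 difference was 0.32, and with RPLP0, where it was 0.27, and MCL1 was higher except with ACTB, where it was -0.036. BBC3 was higher at the same total FPKM, at 0.14, and with GAPDH or RPLP0, and BID was higher with GAPDH or RPLP0.

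**Figure D5:**
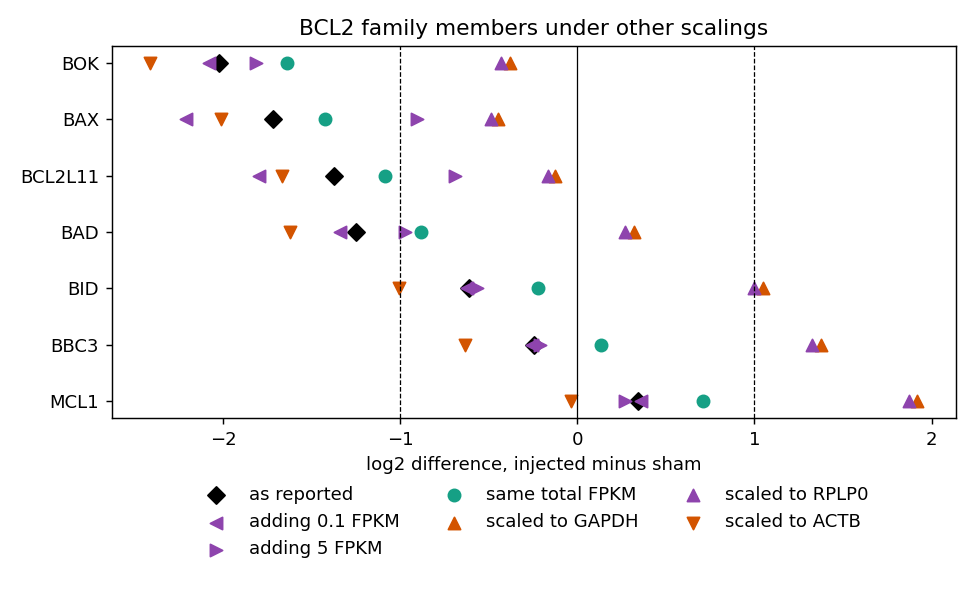
Log2 difference, injected minus sham (horizontal), of 7 BCL2 family members as reported, after adding 0.1 or 5 FPKM, with both pools at the same total FPKM, and with GAPDH, RPLP0 or ACTB as the reference. Dashed lines mark 2-fold, and BOK, BAX and BCL2L11 stay left of 0 in each of these.

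Relatives of these 10 genes were examined in the same way. Of 12 further family genes with a listed symbol, 4 were expressed. Each of these 4 was lower in the siRNA pool as deposited, as were 58.3% of all genes. Each was also lower at the same total FPKM and with ACTB as the reference, while BCL2L12, BCL2L13 and BNIP3L were higher with GAPDH or RPLP0. The median of all genes in these 4 scalings was 0.16, -0.50, 1.20 and 1.16. As deposited, 2 were 2-fold or more lower and 0 were 2-fold or more higher, beside 15.7% and 4.92% of all genes. BNIP3, a mitochondrial protein induced by low oxygen that acts in mitophagy, was 5.03 FPKM in the siRNA pool, against 17.9 FPKM in the sham controls, 3.56-fold lower. BCL2L12 was 5.37 FPKM in the siRNA pool, against 14.6 FPKM in the sham controls, 2.71-fold lower. BNIP3L, the mitophagy receptor related to BNIP3, was 20.2 FPKM in the siRNA pool, against 29.1 FPKM in the sham controls, within 2-fold, as was BCL2L13. The further genes counted here as anti-apoptotic were low in both pools. BCL2L2 (BCL-w) was 0.565 FPKM in the siRNA pool, against 0.420 FPKM in the sham controls, BCL2L10 was listed at 0 in the siRNA pool and at 0.280 FPKM in the sham controls, and BCL2A1 was listed at 0 in both. Among further BH3-only genes, PMAIP1 (NOXA), a p53 target that binds MCL1, BIK and HRK were listed at 0 in both pools, and BMF was 0.227 FPKM in the siRNA pool and listed at 0 in the sham controls. BCL2L15 was 0.382 FPKM in the siRNA pool, against 0.229 FPKM in the sham controls. Of the 6 symbols counted here as anti-apoptotic (BCL2, BCL2L1, MCL1, BCL2L2, BCL2L10 and BCL2A1), MCL1 thus had the highest listed level in both pools, apart from the uncertain division at BCL2L1. BCL2L12, which was not counted among them, was below MCL1 in the siRNA pool. In the sham controls it was above MCL1, at 14.6 FPKM against 12.9 FPKM.

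Genes of proteins that bind BCL2 family members were examined next. As deposited, of 25 such genes that were expressed, 1 was 2-fold or more lower in the siRNA pool, 0 were 2-fold or more higher and 24 lay within 2-fold, beside 15.7%, 4.92% and 79.4% of all genes. Their median log2 difference was -0.24 as deposited, 0.056 at the same total FPKM, -0.63 with ACTB, 1.21 with GAPDH and 1.16 with RPLP0, and with the last 2 references 15 of the 25 were 2-fold or more higher, beside 60.8% and 58.4% of all genes. The lower one was MTCH2, the mitochondrial receptor for cleaved BID, at 19.9 FPKM in the siRNA pool, against 46.1 FPKM in the sham controls. The genes with the highest levels were DYNLL1, a dynein light chain that binds BCL2L11, at 190 FPKM in the siRNA pool, against 342 FPKM in the sham controls, and TMBIM6, an inhibitor of BAX-induced death, at 212 FPKM in the siRNA pool, against 271 FPKM in the sham controls.

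Downstream of the family, 7 genes of mitochondrial release and the apoptosome were expressed. As deposited, 2 of these were 2-fold or more lower in the siRNA pool and 0 were 2-fold or more higher, beside 15.7% and 4.92% of all genes. Their median log2 difference was 0.011 as deposited, 0.40 at the same total FPKM, -0.38 with ACTB, 1.65 with GAPDH and 1.60 with RPLP0. With GAPDH or RPLP0 as the reference, HTRA2 and MTCH2 were higher in the siRNA pool. As deposited, HTRA2, a mitochondrial protease that inactivates apoptosis inhibitors once released, was 17.5 FPKM in the siRNA pool, against 46.7 FPKM in the sham controls, and the nuclease gene ENDOG was 6.84-fold lower. CYCS, of cytochrome c, was 1.54-fold higher in the siRNA pool. Upstream of BID, 4 genes of the death receptor arm were expressed, and as deposited 0 were 2-fold different in either direction, beside 15.7% of all genes lower and 4.92% higher. With GAPDH or RPLP0 as the reference 3 of the 4 were 2-fold or more higher, beside 60.8% and 58.4% of all genes. FADD was then higher as well, at log2 differences of 0.77 and 0.72. With ACTB as the reference FADD was 2-fold or more lower, as were 27.6% of all genes. FADD, the adaptor that recruits caspase-8, was 39.0 FPKM in the siRNA pool, against 73.3 FPKM in the sham controls, and RIPK1, a kinase of the same complex, was 3.71 FPKM in the siRNA pool, against 2.35 FPKM in the sham controls. CASP8, the caspase that cleaves BID, was 0.154 FPKM in the siRNA pool, against 0.00366 FPKM in the sham controls, and neither it nor the death receptor gene FAS reached a mean of 1 FPKM.

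Markers of the trophectoderm and epiblast were present in both pools, those of the hypoblast in part, and as deposited several were lower in the siRNA pool. With GAPDH as the reference only KRT8 of the 11 trophectoderm and epiblast markers was lower, and with RPLP0 only KRT8 and CDX2 were. All genes moved likewise, with medians of 1.20 and 1.16, and 60.8% and 58.4% of them were then 2-fold or more higher. KRT18 and KRT8, keratins of the trophectoderm, were 5389 and 1610.5 FPKM in the siRNA pool, against 11244.6 and 5760 FPKM in the sham controls. Of 8 expressed trophectoderm markers, 3 were 2-fold or more lower as deposited (CDX2, KRT8 and KRT18) and 0 were 2-fold or more higher, beside 15.7% and 4.92% of all genes. ELF5 and TFAP2A were higher in the siRNA pool as deposited, at log2 differences of 0.37 and 0.70. The other 6 were lower, as were 58.3% of all genes. The sum of all 8 was 7418 FPKM in the siRNA pool, against 17531 FPKM in the sham controls, but most of it came from KRT18 and KRT8 in both pools. Of 3 epiblast markers, 1 was 2-fold or more lower as deposited, beside the same 15.7%, with POU5F1 at 56.3 FPKM in the siRNA pool, against 170.1 FPKM in the sham controls, and NANOG at 15.1 FPKM in the siRNA pool, against 23.9 FPKM in the sham controls. Of 4 hypoblast markers, 2 were expressed and lay within 2-fold as deposited, as did 79.4% of all genes, GATA6 at 14.0 FPKM in the siRNA pool, against 13.7 FPKM in the sham controls, and PDGFRA at 2.58 FPKM in the siRNA pool, against 1.82 FPKM in the sham controls. SOX17 was listed at 0 in both, and GATA4 was listed at 0 in the siRNA pool and at 0.0272 FPKM in the sham controls. Of 8 markers of cumulus and granulosa cells, which surround the oocyte, FSHR reached a mean of 1 FPKM, at 4.87 FPKM in the siRNA pool, against 5.69 FPKM in the sham controls, while LHCGR was 0.631 FPKM in the siRNA pool, against 0.311 FPKM in the sham controls, and PTX3 and AMH were listed at 0 in both. The 8 summed to 5.81 FPKM in the siRNA pool, against 6.70 FPKM in the sham controls. The part of the lineage markers in the members' differences was not tested.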

How the data were processed

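RNA of 1 CDKN1C-siRNA-injected and 1 sham-injected embryo pool was amplified and sequenced. The authors aligned reads with TopHat to the bosTau7 genome, and the deposited FPKM values are Cufflinks 2.0.2 estimates, upper-quartile normalized and bias-corrected, and the gene annotation is not given in the sources used here. Symbols with several loci were summed, and 615 loci with no symbol were left out. The size rule was 2-fold after adding 1 FPKM, over genes with a mean of 1 FPKM or more. No test between pools was possible with 1 library per group. Members and lists were chosen with earlier results of these data known. All members and relatives are named. Of the lists of partners, mitochondrial release and death receptors, genes at least 2-fold different and the 2 highest by mean are named, and of the marker lists the 2 highest by mean, with CDKN1C and the neighbours of BID. CDX2, ELF5, TFAP2A, CASP8, FAS, SOX17, GATA4, PTX3, AMH, GAPDH, RPLP0 and ACTB are named outside this rule, after their values were seen. A genome sequence was not used here. Symbols were matched to a RefSeq gene table of ARS-UCD2.0, which held all 10 members. Alternatives were other pseudocounts, filters, fold rules, scalings and the locus with the highest mean. Scaling to GAPDH, RPLP0 or ACTB and leaving out members in dense regions were added after the data were seen. Python 3.11.15, pandas 2.3.3, NumPy 2.4.6 and matplotlib 3.10.9 were used.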

Additional observations from a re-analysis of the deposited data

How the results depend on the processing

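The 4 of 7 members 2-fold or more lower in the siRNA pool, beside 15.7% of all genes, became 1 after adding 5 FPKM (7.49% of all genes), 2 of 5 with a mean of at least 5 FPKM (19.6%), 1 by a 4-fold rule (1.05%), 2 of 3 without the members in the densest tercile (9.34% of the genes outside it), and 0 with GAPDH (0.526%) or RPLP0 (0.551%) as the reference, where 3 and 2 members were 2-fold or more higher, beside 60.8% and 58.4% of all genes. The count was 3 with the same total FPKM (7.43%). It was 4 after adding 0.1 FPKM (20.5%), with the median of all genes set to 0 (11.0%) and with the highest BID locus (15.7%), and 5 with a 1.5-fold rule (30.5%) and with ACTB (27.6%). Without a filter it was 4 of 10 members (8.30%). The median of -1.25 became -0.69 after adding 5 FPKM, -0.64 without a filter, -0.61 with a mean of at least 5 FPKM, -1.09 with the median of all genes set to 0, -0.88 with the same total FPKM, 0.32 with GAPDH, 0.27 with RPLP0, -1.62 with ACTB and -1.38 without the members in dense regions. Beside the first 3 of these, the median of all genes was -0.10, -0.03 and -0.30, against -0.17 as deposited. BAD alone among called members turned, to 0.32 with GAPDH and 0.27 with RPLP0. Among all genes, the share 2-fold or more higher was 4.92% as deposited, 7.72% with the median set to 0, 11.9% with the same total and 1.84% with ACTB. No paired analysis was possible because each group has 1 library. Leaving out a replicate was not possible for the same reason. Single libraries give no spread between pools, and the depth is unknown.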
